A study of Mus musculus with 8 samples.

Results

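The contrast of actinomycin D plus vehicle with untreated cells asks which messenger RNAs of mouse embryonic stem cells are lost, and which are kept, once new transcription is blocked. It rests on 5 of the 8 arrays in the series, chosen by their titles: 3 arrays titled 0h and 2 arrays titled 4h_EtOH. Embryonic stem cells are pluripotent cells of the early embryo that renew themselves in culture. All cultures, the untreated ones too, were kept with the self-renewal cytokine LIF and with PD173074, which blocks FGF receptors, at 250 nM. The untreated cells are called so by their treatment label, although their titles carry an abbreviation of actinomycin D. The others received 5 µM actinomycin D and, 30 min later, ethanol as vehicle for 4 h. Ethanol, the elapsed time and actinomycin D cannot be told apart in this contrast, and 1 time point gives a remaining level and not a half-life. The design text speaks of biological replicates, 3 per condition, whereas the vehicle group has 2 arrays. The labels name neither the cell line nor a genotype.

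Actinomycin D intercalates into DNA and stops the RNA polymerases, so the level of an mRNA afterwards depends on how fast the existing copies are destroyed. Most mRNAs decay by shortening of the poly(A) tail, removal of the cap and digestion from either end, at rates set in part by elements in their 3′ untranslated regions. Messages of transcription factors, signalling inhibitors and cytokines are known for rapid turnover, and those of metabolic enzymes and structural proteins for persistence.

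Labelled total RNA was read on Agilent mouse arrays in 1 colour, and the spot signal at the 75th percentile was 333, 457 and 405 in untreated cells and 166 and 205 after actinomycin D. Values are log2 signals relative to that percentile of the array, so 0 is the 75th percentile and a rise is a gain relative to it. Relative to 8 added control (spike-in) probes the percentile itself fell by 1.29 log2, so every difference is lower by that amount on the spike-in scale. Taken singly, the spike-in probes moved between the groups by -0.041 to 0.32 in log2 signal before any scaling. All 10 stem cell markers, Pou5f1 and Sox2 among them, were well above background on the 5 arrays. Of 8 fibroblast markers 4 were above background on every untreated array, and Col3a1, Postn, Lum and Dcn were not. The summed signal of the 6 primitive endoderm markers was 234.6 to 351 on the untreated arrays and 44.6 to 57.1 after actinomycin D, when 1 of them was above background on both arrays. Of 6 trophoblast markers 4 were above background on every untreated array, as were all 4 neural markers. Their summed signals there were 2341 to 3510 and 757 to 1047, and after actinomycin D 1243 to 1909 and 541 to 618. The part of any of these markers in the results was not tested. Both groups lay on 1 slide but in different rows, so the effect of the row cannot be told apart from that of the treatment.

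A gene was called where the Benjamini-Hochberg adjusted p from limma was under 0.05, over 28493 features, and each ± is the standard error of a difference between 3 untreated and 2 treated arrays. Of all features, 4538 fell (15.9%) and 11832 rose (41.5%), and 30 rose on the spike-in scale. A fall of at least 2-fold was called for 10.4% of features and a rise of at least 2-fold for 9.86%. Of the called features 72.3% were thus higher, against 60.2% after quantile normalization, 84.8% after normexp background correction and 0.159% on the spike-in scale. Among the 14932 genes with a symbol, 2850 fell (19.1%) and 6176 rose (41.4%), and the falls of at least 2-fold (11.9%) outnumbered the rises of at least 2-fold (6.98%). The distribution was lopsided: differences ran from -7.66 to 4.49, while the quartiles were -0.28 and 0.71 around a median of 0.35 (-0.93 against the spike-ins). On the spike-in scale the median gene kept 52.3% of its untreated level, 10608 symbols fell (71.0%) and 7 rose (0.0469%). Whether the spike-ins were added per cell or per amount of RNA was not established here. The 52.3%, like every value against the spike-ins, need therefore not be a share per cell. The groups did not overlap for 23.4% of symbols that were lower and 50.4% that were higher on the 75th-percentile scale. With the genes cut into 5 groups of equal size by untreated level, the share at least 2-fold lower was 17.4% in the middle group and 6.09% in the brightest, where the median difference was 0.66 and 69.3% rose (on the 75th-percentile scale).

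**Figure D1:**
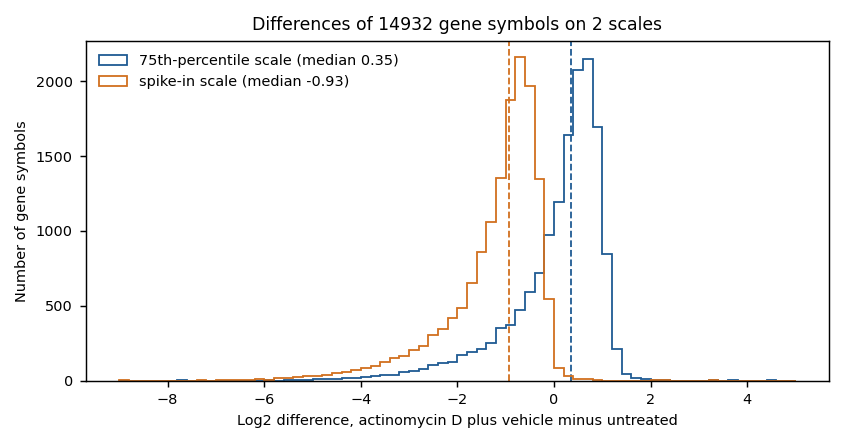
Number of gene symbols (vertical axis) by log2 difference, actinomycin D plus vehicle minus untreated (horizontal axis), on the 75th-percentile scale and on the spike-in scale, with the median of each as a dashed line. The same shape is shifted by 1.29, with medians of 0.35 and -0.93, and its long tail lies on the side of loss.

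Regulators of transcription and signalling were among the deepest losses. Zfp296, a zinc finger protein of pluripotent cells, read 4.98, 4.85 and 4.87 on the untreated arrays and -0.45 and -0.21 after actinomycin D. The groups were far apart, and the fall of 5.23 ± 0.11 (adjusted p = 3.5e-06) left 2.67% of the untreated value on the 75th-percentile scale. Against the spike-ins the share left was lower, because that percentile itself fell by 1.29 log2. Med26, the Mediator subunit that recruits elongation factors, read 3.26, 3.12 and 3.13 on the untreated arrays and -2.06 and -1.77 after actinomycin D, a fall of 5.09 ± 0.16 (adjusted p = 5.0e-06). Socs3, the feedback inhibitor of LIF signalling, read 5.64, 5.94 and 5.71 on the untreated arrays and 0.60 and 1.3 after actinomycin D. It lost 4.81 ± 0.21 log2 (adjusted p = 1.9e-05), with no overlap between the groups. Foxd3, a forkhead factor of pluripotent and neural crest cells, read 2.98, 3.03 and 2.94 on the untreated arrays and -1.48 and -2.01 after actinomycin D and fell by 4.72 ± 0.20 (adjusted p = 1.7e-05). H1f5, a replication-dependent linker histone, read 5.18, 5.07 and 5.01 on the untreated arrays and -0.21 and 0.18 after actinomycin D and fell by 5.11 ± 0.14 (adjusted p = 3.5e-06). The highest treated array of each of these 5 genes lay below their lowest untreated array. The other genes among the 12 deepest measured losses were Tmem185b (-5.13 ± 0.40), Zfp105 (-4.89 ± 0.14), Dusp6 (-4.85 ± 0.22), Spry1 (-4.81 ± 0.28), Trib1 (-4.75 ± 0.17) and Myc (-4.71 ± 0.13), together with Btg1. Btg1, an antiproliferative partner of the deadenylation machinery, fell by 4.8 ± 0.13 on its brightest probe and by 0.91 on another, so its probes disagree.

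A further 292 symbols fell from above background on every untreated array to below it on both treated arrays, and for these only a lower bound of the loss can be given. The bound sets the untreated mean against the higher of the treated signal and the dimmest signal that counted as above background. Fam43a fell at least 54.5-fold (adjusted p = 3.5e-06), from 1.3, 0.74 and 1.08 on the untreated arrays and -6.75 and -6.5 after actinomycin D. Snai1, the repressor that drives epithelial cells to a mesenchymal state, fell at least 27.3-fold (adjusted p = 0.00011). Tagap1 fell at least 31.7-fold and the zinc finger genes Zfp39 and Zfp78 at least 10.8-fold and at least 9.71-fold. Normexp background correction, which lifts dim signals, left smaller differences, of -2.86 for Fam43a, -1.92 for Snai1, -2.12 for Tagap1, -0.78 for Zfp39 and -0.86 for Zfp78.

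At the other end, housekeeping messages stayed high. Gapdh, a glycolytic enzyme, read 8.95, 8.75 and 8.61 on the untreated arrays and 10.2 and 9.99 after actinomycin D, a rise of 1.33 ± 0.13 (0.04 against the spike-ins) on its brightest probe. That call was lost after quantile normalization (0.18) and against the spike-ins, where its 6 further probes read -0.39 to -0.16. Actb, which encodes cytoplasmic actin, read 9.08, 8.79 and 8.81 on the untreated arrays and 10.1 and 9.91 after actinomycin D, a rise of 1.11 ± 0.14 (-0.18 against the spike-ins, -0.0058 after quantile normalization). The groups did not overlap for either gene on the 75th-percentile scale. Eef1a1, the elongation factor that brings aminoacyl-tRNAs to the ribosome, rose by 1.13 ± 0.13 (-0.16 against the spike-ins) on its brightest probe (0.30 against the spike-ins on another) and the tubulin gene Tuba1a by 1.01 ± 0.12 (-0.28 against the spike-ins). Hprt, a purine salvage enzyme often used as a reference, differed by 0.46 ± 0.20 and was not called (adjusted p = 0.084; without untreated replicate 2 it was, at 0.60; -0.83 against the spike-ins). Of the 10 stem cell markers 3 fell and 5 rose on the 75th-percentile scale. Nanog, a homeodomain factor of the pluripotency network, read 4.5, 4.28 and 4.44 on the untreated arrays and 4.38 and 4.43 after actinomycin D, a difference of -0.0021 ± 0.12 that was not called (adjusted p = 0.99). It was called as lower against the spike-ins (-1.29), after quantile normalization (-0.48) and after normexp (-0.33), and another Nanog probe read 1.62 on the 75th-percentile scale. Klf5 fell by 0.70 ± 0.11, against 3.71 ± 0.13 for Klf2 and 3.61 ± 0.12 for Klf4.

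**Figure D2:**
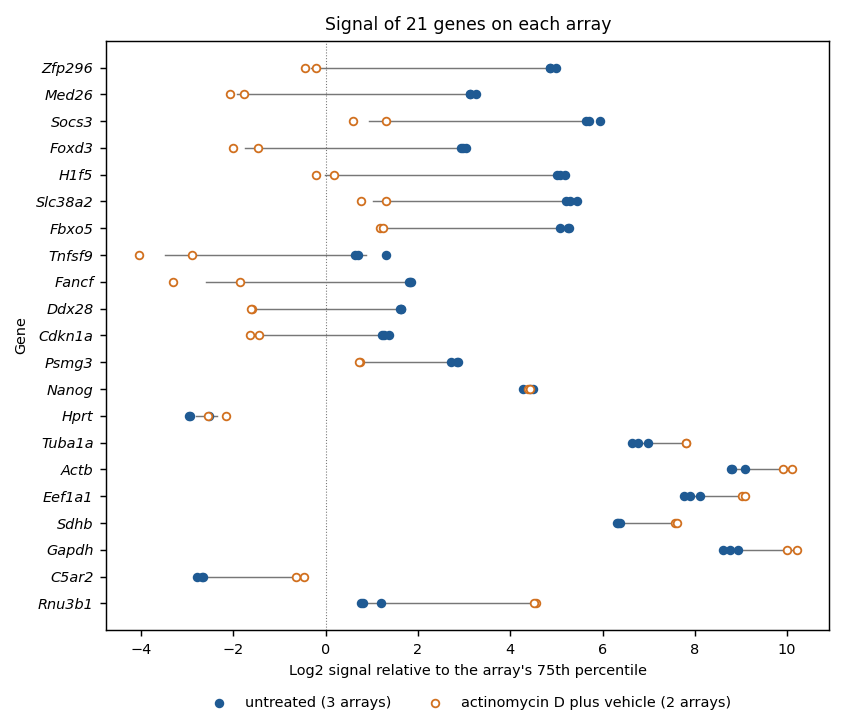
Log2 signal relative to the array's 75th percentile (horizontal axis) on each of the 3 untreated and 2 treated arrays (points) for 12 genes that fell and 9 others (rows), with a line joining the group means. On this scale the treated arrays of Zfp296 sit at 2.67% of the untreated level, a share that is lower against the spike-ins. The treated arrays of Gapdh, Actb, Eef1a1 and Sdhb lie to the right of the untreated ones on this scale. Against the spike-ins this direction turns for the plotted probes of Actb, Eef1a1 and Sdhb (-0.18, -0.16 and -0.035) and for the other Gapdh probes.

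The start regions of some short-lived genes are shown because a TATA box, the element that places RNA polymerase II near the start, is known from many rapidly induced genes. The sequences are from RefSeq (GRCm38.p6), 60 bases up to the base before the start, 5′ to 3′ on the gene's strand, with the letters TATAAA in capitals. Btg1, Ccn1, H1f5 and Rnd3 hold these letters, whereas Zfp296 and Socs3 do not hold them in this window.
Btg1 (chr10:96616941-96617000, + strand): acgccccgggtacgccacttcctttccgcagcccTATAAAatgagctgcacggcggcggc
Ccn1 (chr3:145649986-145650045, - strand): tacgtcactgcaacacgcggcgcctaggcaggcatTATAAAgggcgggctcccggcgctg
H1f5 (chr13:21780626-21780685, - strand): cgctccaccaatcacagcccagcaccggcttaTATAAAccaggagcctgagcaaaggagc
Rnd3 (chr2:51149112-51149171, - strand): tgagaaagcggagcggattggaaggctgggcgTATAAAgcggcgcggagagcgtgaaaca
Zfp296 (chr7:19577227-19577286, + strand): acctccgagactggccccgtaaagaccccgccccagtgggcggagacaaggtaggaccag
Socs3 (chr11:117969367-117969426, - strand): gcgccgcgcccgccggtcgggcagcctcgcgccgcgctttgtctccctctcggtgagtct

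The letters TATAAA, searched on the gene's strand between 45 and 16 bases before the first listed start, were in 10 of 213 promoters (4.70%) of genes called at least 8-fold lower. They were in 17 of 1208 (1.41%) of those 2-fold to 8-fold lower, in 17 of 823 (2.07%) of those at least 2-fold higher on the 75th-percentile scale, and in 239 of all 11878 tested genes with a promoter sequence (2.01%). On the other strand the letters were in 0.469%, 0.414%, 0.486% and 0.522% of the same groups. The 8-fold limit was chosen after the values were seen, and the shares are a description with no test. The 10 genes were H1f5, Fos, Btg1, H2ac4, Rnd3, Ccn1, H1f4, Gadd45g, Adamts1 and H2ac21, of which 4 encode replication-dependent histones. Of these, Rnd3 fell by 4.22 ± 0.28.

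The genes were then read by functional class, in 60 classes that hold 3015 tested symbols. Each class is given by its counts and its median, to be set beside all symbols (median 0.35, 19.1% fell and 41.4% rose). Counts near these shares do not set a class apart. Examples are the Hippo list (23.8% fell and 42.9% rose), kinesins and dynein subunits (13.7% and 41.2%) and imprinted genes (18.5% and 44.4%). Lists of bright genes are also to be set beside the brightest group by untreated level (median 0.66, 11.6% fell and 69.3% rose). Such lists include snRNP proteins, SR proteins and translation factors, with median signals of 9048, 8547 and 7842 on untreated replicate 1. The class values were not adjusted for level. Counts are on the 75th-percentile scale. Against the spike-ins at most 1 member of any class rose, and more members fell than rose in all 42 classes in which rises outnumbered falls on the 75th-percentile scale. After quantile normalization falls outnumbered rises in 14 of these classes. Over all classes, the number that rose was then over 1.5 times smaller in 42 and the number that fell over 1.5 times larger in 18. Of the 10 lowest medians on the 75th-percentile scale 7 belonged to lists of transcription regulators and 3 to signalling lists. The 7 include the clock list and the E2f and retinoblastoma list, which hold more than transcription factors. These 2 areas also hold the most lists, and the order depended on the processing. After normexp the Sox list, 1 of the 7, had a median of 0.386, beside 0.393 for all symbols. In the Zbtb family, zinc finger factors with a protein-binding BTB domain that mostly repress, 27 of 38 tested members fell and 3 rose, with a median of -1.27. Zbtb3 fell by 3.77 ± 0.19 and Zbtb8b by 3.67 ± 0.27. Zbtb49, one of the 3 risers, gained 0.84 ± 0.12 (-0.45 against the spike-ins) on its brightest probe and read -2.11 on another. Among Krüppel-like and Sp factors 17 of 24 tested members fell and 2 rose (0 against the spike-ins), with a median of -0.77 and a range from the deepest fall in Klf2 to 0.83 ± 0.16 for Sp7. Klf15 fell by 2.81 ± 0.15. Of the basic helix-loop-helix and Myc network factors, 23 of 42 fell, with a median of -0.53: Hes1, the Notch-regulated repressor, by 3.97 ± 0.21 and Mycn by 2.85 ± 0.18, while Usf2 rose by 0.87 ± 0.12 (-0.42 against the spike-ins).

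Sox factors split widely. 6 of 15 fell, and the median was -0.42 (0.39 after normexp). Sox7, an endoderm and endothelial factor, fell at least 7.13-fold to below background, whereas Sox13 rose by 0.67 ± 0.11 (-0.62 against the spike-ins). Of the forkhead factors 13 of 34 fell, and the median was -0.29 (0.23 after normexp). Foxj3 fell by 2.77 ± 0.26, while Foxo4, a target of insulin signalling, read 1.31 (0.018 against the spike-ins, where another probe read -0.21) and was called. Of 107 Hox and other homeobox factors 33 fell and 21 rose, around a median of -0.084 (0.40 after normexp). Gbx2, a LIF-responsive factor of naive cells, fell by 4.38 ± 0.24.

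Among nuclear receptors 12 of 33 fell. Nr1d1, the heme-binding repressor of the circadian clock, fell at least 10.6-fold to below background, Nr4a1 fell by 2.94 ± 0.18, and Nr6a1, a repressor of Pou5f1, rose by 0.86 ± 0.098 (-0.43 against the spike-ins). In the clock list, which shares Nr1d1, 9 of 17 fell with a median of -0.67: Nfil3, a repressor of clock output, by 3.2 ± 0.23 and Per1 by 1.38 ± 0.11. The E2f and retinoblastoma list had 8 of 19 falling: E2f3 lost 3.35 ± 0.26, and the MuvB subunits Lin9 and Lin54 lost 2.27 ± 0.17 and 2.1 ± 0.13. Of the Ets factors 8 of 22 fell, Elf1 by 2.01 ± 0.39 and Spic by 1.97 ± 0.17. The number of rises in these lists depended on single arrays: without vehicle replicate 1 it was 4 in place of 9 for forkhead factors, 4 in place of 7 for nuclear receptors and 3 in place of 7 for the E2f list. For the clock list it was 2 in place of 4 without vehicle replicate 1 or untreated replicate 3.

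Most lists of chromatin and transcription complexes had medians close to that of all symbols, with single members far below. The Polycomb group had a lower median. Of 74 chromatin remodellers and histone acetylation enzymes 18 fell and 37 rose, with a median of 0.35 (-0.94 against the spike-ins). Arid4b, a subunit of the Sin3 repressor complex, fell by 3.1 ± 0.095, Arid5a by 2.72 ± 0.16 and Ino80d by 2.27 ± 0.11, and Hdac1 rose by 1.17 ± 0.16 (-0.12 against the spike-ins). Of 56 histone methyltransferases and demethylases 14 fell and 26 rose, with a median of 0.27 (-1.02 against the spike-ins, -0.05 after quantile normalization). Kmt2e fell by 1.47 ± 0.13 and Setd1b by 1.32 ± 0.10, and Prmt1, the main arginine methyltransferase, rose by 1.13 ± 0.13 (-0.15 against the spike-ins). In the Polycomb group 8 of 32 fell and 4 rose (5 fell with a replicate block, 17 after quantile normalization and 32 against the spike-ins). Its median was 0.021 (-1.27 against the spike-ins, -0.40 after quantile normalization), below that of all symbols. Pcgf1, a Polycomb ring finger protein, fell by 1.79 ± 0.14. Of the RNA polymerase II subunits and general factors 28 of 46 rose and 7 fell, with a median of 0.50 (-0.79 against the spike-ins); after quantile normalization 8 rose and 8 fell, and against the spike-ins 0 rose and 35 fell. The TAF family members Taf5l and Taf3 fell by 1.99 ± 0.13 and 1.41 ± 0.11. In Mediator and the elongation factors 13 of 60 tested members fell and 30 rose, with a median of 0.39 (-0.90 against the spike-ins): beside Med26, Med7 fell by 2.02 ± 0.11 and Hexim1, the inhibitor of P-TEFb, by 2.23 ± 0.16, while Med25 rose by 1.23 ± 0.098 (-0.062 against the spike-ins).

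Among signalling genes, feedback inhibitors had a low median. Of the dual-specificity phosphatases, Socs proteins and Tribbles pseudokinases 20 of 33 fell, with a median of -1.29 (-0.32 after normexp). This was the lowest class median on the 75th-percentile scale, but the Zbtb list was lower after quantile normalization, several lists were lower after normexp, and the integrated stress response list was lower with a replicate block and without untreated replicate 1, untreated replicate 3 or vehicle replicate 1. All 3 families held deep losses, in Dusp6, Socs3 and Trib1, values given above. In all 4 members rose (1 without vehicle replicate 1), and 0 rose against the spike-ins. In the NF-kappa B pathway 14 of 28 tested members fell and 1 rose (0 against the spike-ins), with a median of -0.55. Its feedback inhibitors Nfkbia and Tnfaip3 fell by 3.11 ± 0.14 and at least 5.37-fold (the latter to below background), and the adaptor Traf6 by 2.98 ± 0.33, above background on 1 of 2 treated arrays.

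In the Wnt pathway 20 of 53 fell, among them the Frizzled receptors Fzd10 (-4.37 ± 0.21), Fzd7 (-3.89 ± 0.14) and Fzd9 (-3.72 ± 0.22), and the cytoplasmic transducer Dvl3 rose by 1.08 ± 0.13 (-0.21 against the spike-ins). The median of that list was -0.22 (0.19 after normexp). In the Notch list 10 of 29 fell, with Hes1 and Hes5 (-2.43 ± 0.36, above background on 1 of 2 treated arrays) as its target genes; 9 rose (3 without vehicle replicate 2). In the Hippo list 5 of 21 tested members fell and 9 rose (0 against the spike-ins), with a median of 0.28 (-1.01 against the spike-ins, -0.01 after quantile normalization). The losses there included the secreted target Ccn1, also called Cyr61 (-3.91 ± 0.14), and Amotl2 (-1.79 ± 0.20), while Nf2, the upstream tumour suppressor, rose by 1.01 ± 0.087 (-0.28 against the spike-ins). Tnfsf9, a costimulatory ligand of the TNF family, read 0.70, 0.65 and 1.31 on the untreated arrays and -4.04 and -2.91 after actinomycin D and fell by 4.36 ± 0.35 (adjusted p = 0.00018), with no overlap. It was 1 of 3 that fell among 35 tested cytokines and chemokines (4 without untreated replicate 2). The others were Tnfsf11, at least 3.39-fold lower, and Il9, at least 2.03-fold lower. After normexp Tnfsf11 read -0.042 and was not called, and Il9 turned to 0.54, above untreated. The median difference of the cytokine and chemokine list was 0.47 (-0.82 against the spike-ins). The list was dim, with median signals of 39.0, 64.1 and 39.5 on the untreated arrays and 25.3 and 33.3 after actinomycin D. Of the MAP kinases 21 of 41 rose and 6 fell, with a median of 0.37 (-0.92 against the spike-ins); after quantile normalization 9 rose and 6 fell, and against the spike-ins 0 rose and 33 fell. Map3k2 was at -1.26 ± 0.11 and Map4k2 at 1.04 ± 0.16 (-0.25 against the spike-ins).

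The integrated stress response, in which phosphorylation of eIF2 raises translation of Atf4, held large falls and rises. Of its genes 13 of 23 fell and 5 rose (0 against the spike-ins), with a median of -1.18. Chac1, a glutathione-degrading enzyme, fell by 5.94 ± 0.65 and was above background on 1 of 2 treated arrays. Gdf15, a secreted stress hormone, fell at least 12.8-fold to below background, and Herpud1, which acts in degradation at the endoplasmic reticulum, fell by 2.44 ± 0.20. Of the 5 that rose, Asns, which makes asparagine, rose by 1.05 ± 0.13 (-0.23 against the spike-ins), Phgdh by 1.0 ± 0.11 (-0.29 against the spike-ins) and the transporter Slc7a5 by 1.19 ± 0.098 (-0.096 against the spike-ins). Slc38a2, a further amino acid transporter, read 5.45, 5.29 and 5.21 on the untreated arrays and 1.31 and 0.76 after actinomycin D. It fell by 4.29 ± 0.20, the deepest fall among 267 solute carriers, of which 50 fell and 79 rose around a median of 0.19 (-1.1 against the spike-ins).

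**Figure D3:**
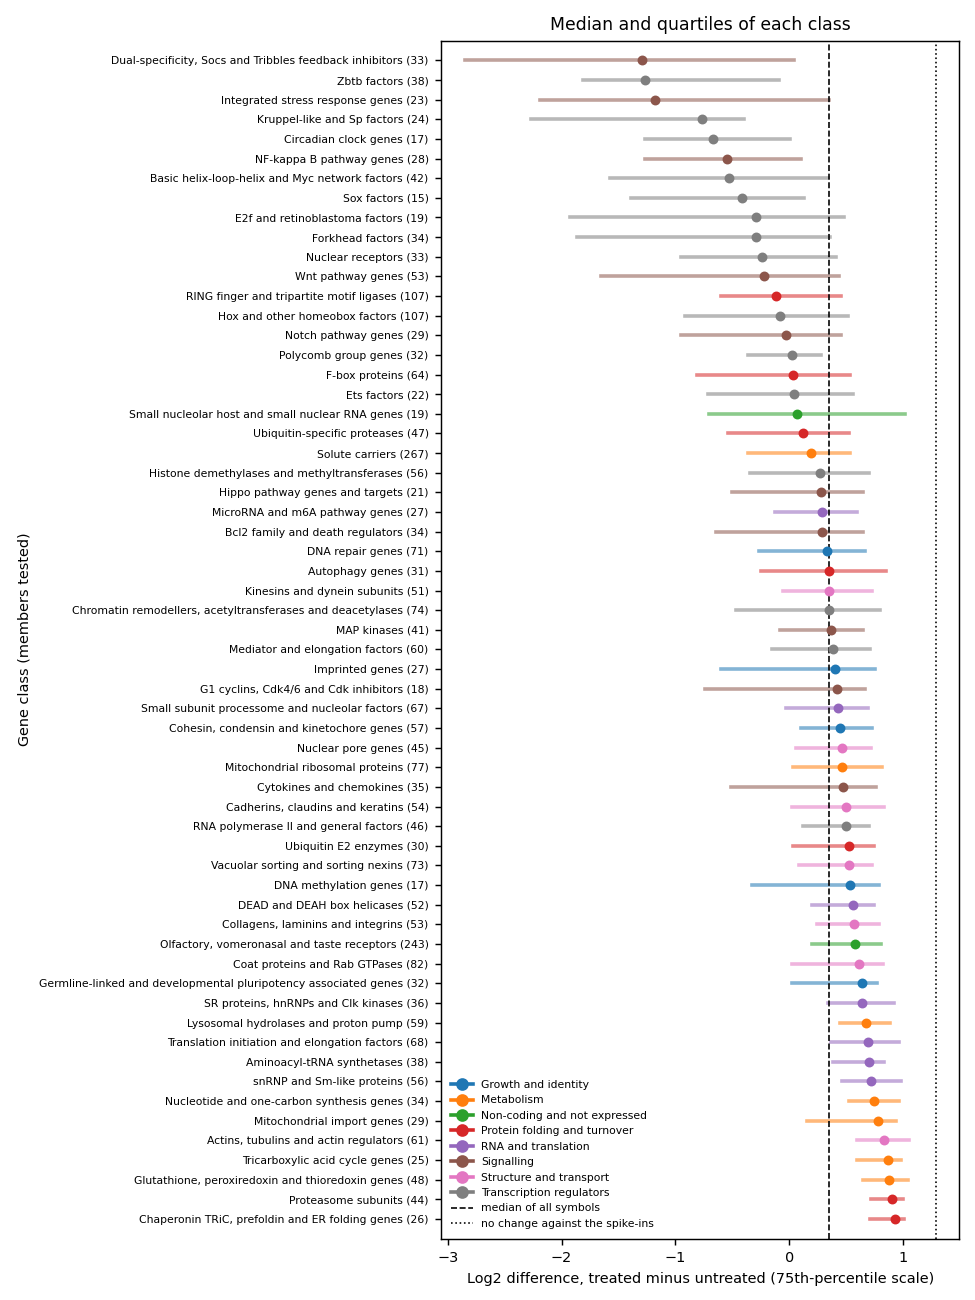
Median log2 difference (points) and quartiles (bars) of each of the 60 gene classes on the 75th-percentile scale (horizontal axis), ordered by median, with the median of all symbols (0.35) and the level of no change against the spike-ins (1.29) as vertical lines. The classes run from -1.29 (feedback inhibitors) to 0.93 (chaperonins and folding genes), and every class median lies left of the line for no change against the spike-ins.

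On the 75th-percentile scale RNA-processing and translation genes had medians near or above that of all symbols, each list with a few deep losses. Quantile normalization brought 5 of these medians near that of all symbols (0.12). They were then 0.077 (SR list), 0.094 (snRNP list), 0.081 (helicases), 0.084 (translation factors) and 0.14 (tRNA synthetases). The members that rose then numbered 6, 12, 17, 13 and 11 in these 5 lists. In the list of SR proteins, hnRNPs and Clk kinases 4 of 36 tested members fell and 26 rose, with a median of 0.64 (-0.64 against the spike-ins). The 4 that fell were the kinases that phosphorylate SR proteins: Clk1 lost 3.26 ± 0.30, Clk4 1.4 ± 0.10, Clk2 1.05 ± 0.086 and Clk3, named after its value was seen, 0.31 ± 0.10, a call that was lost without any 1 array other than untreated replicate 2. Clk1 read 2.8, 2.68 and 2.77 on the untreated arrays and -1.07 and 0.063 after actinomycin D, with no overlap between the groups. The SR protein Srsf5 rose by 1.23 ± 0.10 (-0.059 against the spike-ins). Of the snRNP and Sm-like proteins 44 of 56 rose, with a median of 0.72 (-0.57 against the spike-ins). The 3 that fell were Lsm8 (-1.22 ± 0.15) and the U7 snRNP components Lsm10 (-1.29 ± 0.28) and Lsm11 (-1.4 ± 0.13), which serve histone mRNA processing. Of 52 DEAD and DEAH box helicases 35 rose and 4 fell (Ddx28, Ddx20, Ddx55 and, named after its value was seen, Ddx31), with a median of 0.56 (-0.73 against the spike-ins). Ddx28, a mitochondrial helicase, read 1.61, 1.64 and 1.63 on the untreated arrays and -1.61 and -1.61 after actinomycin D, a fall of 3.23 ± 0.096 with no overlap, and Dhx9 rose by 1.03 ± 0.11 (-0.26 against the spike-ins).

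Ribosome assembly factors had a median of 0.42 (-0.86 against the spike-ins, -0.041 after quantile normalization), with 35 of 67 rising. Utp23 fell by 2.36 ± 0.14 and the nucleolar GTPase Gnl3 (nucleostemin) by 1.5 ± 0.12, while nucleolin, Ncl, rose by 1.01 ± 0.12 (-0.28 against the spike-ins, -0.052 after quantile normalization). In the list of translation initiation and elongation factors 3 of 68 tested members fell and 48 rose, with a median of 0.69 (-0.60 against the spike-ins); the deepest fall was in the eIF2 kinase Eif2ak3 (PERK), by 1.2 ± 0.084, and Eef2 rose by 1.21 ± 0.12 (-0.078 against the spike-ins). Of the aminoacyl-tRNA synthetases 29 of 38 rose, with a median of 0.70 (-0.58 against the spike-ins). The 4 that fell all encode mitochondrial enzymes: Mars2 at least 12.9-fold to below background, Pars2 by 2.68 ± 0.36, Yars2 by 1.17 ± 0.11 and Hars2, named after its value was seen, by 0.94 ± 0.10. The enzymes that charge tRNAs in the cytosol included Hars, which rose by 1.21 ± 0.10 (-0.076 against the spike-ins), and Eprs, which rose by 1.01 ± 0.093 (-0.28 against the spike-ins). Of 27 microRNA and m6A pathway genes 11 rose and 4 fell (Tnrc6a, Tnrc6c, Ythdc2 and, named after its value was seen, Mettl3), with Tnrc6a, the silencing partner of Argonaute, at -1.44 ± 0.20 and a median of 0.28 (-1.0 against the spike-ins).

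Proteasome genes and the ligases that choose its substrates had medians at different heights. Of 44 proteasome genes 35 rose and 1 fell, with a median of 0.90 (-0.39 against the spike-ins); after quantile normalization 14 rose and 3 fell, and against the spike-ins 0 rose and 10 fell. Psmb6, a catalytic subunit, rose by 1.19 ± 0.12 (-0.097 against the spike-ins), and the one that fell was Psmg3, an assembly chaperone, which read 2.84, 2.71 and 2.87 on the untreated arrays and 0.74 and 0.73 after actinomycin D and lost 2.07 ± 0.097. Among ubiquitin-conjugating E2 enzymes 17 of 30 rose with a median of 0.52 (-0.77 against the spike-ins, -0.012 after quantile normalization), and Ube2t, of the Fanconi pathway, fell by 1.16 ± 0.20. The ligases and proteases that choose substrates had lower medians: 0.032 (-1.26 against the spike-ins, -0.22 after quantile normalization) for F-box proteins, -0.12 (0.11 after normexp) for RING finger and tripartite motif proteins and 0.12 (-1.17 against the spike-ins, -0.0044 after quantile normalization) for ubiquitin-specific proteases. Fbxo5 (Emi1), the inhibitor of the anaphase-promoting complex, read 5.27, 5.25 and 5.07 on the untreated arrays and 1.18 and 1.23 after actinomycin D and fell by 3.99 ± 0.098. Fbxo46 fell by 3.6 ± 0.097, Trim13 by 3.68 ± 0.11 and Usp42 by 4.01 ± 0.11, and none of these 4 genes overlapped between the groups. Of the F-box proteins 20 of 64 fell and 18 rose (11 without vehicle replicate 2). Chaperonin, prefoldin and folding genes had a median of 0.93 (-0.36 against the spike-ins), the highest of the classes on the 75th-percentile scale, though proteasome genes were higher without untreated replicate 2, untreated replicate 3 or vehicle replicate 2 and 0.21 after quantile normalization was not the highest. Of these genes 23 of 26 rose and 0 fell (after quantile normalization 8 rose and 1 fell, and against the spike-ins 0 rose and 7 fell), with Cct5 of the TRiC chaperonin at 1.15 ± 0.098 (-0.14 against the spike-ins) and Pdia4 at 1.21 ± 0.11 (-0.075 against the spike-ins). In the autophagy list 15 of 31 rose and 5 fell (3 without untreated replicate 1), with Atg9a at -1.58 ± 0.15 and a median of 0.35 (-0.94 against the spike-ins).

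In several metabolic lists no member fell on the 75th-percentile scale. Of the tricarboxylic acid cycle genes 23 of 25 rose and 0 fell, with a median of 0.87 (-0.42 against the spike-ins); after quantile normalization 10 rose and 1 fell, and against the spike-ins 0 rose and 10 fell. Sdhb, a subunit of succinate dehydrogenase, read 6.34, 6.37 and 6.32 on the untreated arrays and 7.57 and 7.62 after actinomycin D and rose by 1.25 ± 0.084 (-0.035 against the spike-ins). Of the nucleotide and one-carbon synthesis genes 30 of 34 rose and 0 fell, with a median of 0.74 (-0.55 against the spike-ins); after quantile normalization 15 rose and 2 fell, and against the spike-ins 0 rose and 16 fell. Impdh2, which limits guanine nucleotide synthesis, rose by 1.1 ± 0.12 (-0.18 against the spike-ins). Glutathione, peroxiredoxin and thioredoxin genes had a median of 0.88 (-0.41 against the spike-ins), with 38 of 48 rising and 0 falling (1 without untreated replicate 3); after quantile normalization 16 rose and 1 fell, and against the spike-ins 0 rose and 15 fell. Mitochondrial ribosomal proteins had a lower median, 0.47 (-0.82 against the spike-ins, -0.07 after quantile normalization), with 45 of 77 rising, and import genes one of 0.78 (-0.51 against the spike-ins, -0.0029 after quantile normalization), with 20 of 29 rising. In the import list Timm29 (-0.97 ± 0.20) fell with Timm10 (-0.75 ± 0.12) and Timm9 (-0.56 ± 0.12), the small chaperones of the intermembrane space, which form a complex with each other. Of the lysosomal hydrolases and proton pump genes 44 of 59 rose, with a median of 0.68 (-0.61 against the spike-ins), and Galns is described with the largest rises.

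Most lists of structural genes also had medians above that of all symbols on the 75th-percentile scale. Of the actins, tubulins and actin regulators 44 of 61 rose, with a median of 0.83 (-0.45 against the spike-ins); Actg1 rose by 1.24 ± 0.15 (-0.052 against the spike-ins) and profilin 2, Pfn2, fell by 1.3 ± 0.12. Fn1, the matrix protein fibronectin, rose by 1.52 ± 0.099 (0.23 against the spike-ins), in a list of collagens, laminins and integrins with a median of 0.57 (-0.72 against the spike-ins), where 27 of 53 rose (17 without vehicle replicate 2). Of 54 cadherins, claudins and keratins 20 rose (13 without vehicle replicate 2), with a median of 0.50 (-0.79 against the spike-ins). Coat proteins and Rab GTPases had a median of 0.61 (-0.68 against the spike-ins): Arf1, which drives coat assembly, rose by 1.17 ± 0.12 (-0.12 against the spike-ins), while Rab3a, a GTPase of regulated secretion, fell by 2.32 ± 0.11 among 14 of 82 falls. In the vacuolar sorting list 46 of 73 rose and 9 fell, with a median of 0.52 (-0.76 against the spike-ins) and Vps18 at -1.87 ± 0.12. Of 45 nuclear pore genes 26 rose and 5 fell, with a median of 0.46 (-0.83 against the spike-ins), among them Nup62 (-1.18 ± 0.12) and Nup153 (-0.98 ± 0.11). Of 51 kinesins and dynein subunits 21 rose and 7 fell, with a median of 0.35 (-0.94 against the spike-ins); Kif18a, the kinesin that limits chromosome oscillation in mitosis, fell by 2.7 ± 0.17 and Dync1h1, the dynein heavy chain, rose by 1.25 ± 0.082 (-0.041 against the spike-ins).

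Growth, death and genome maintenance genes were mixed, beside 19.1% that fell and 41.4% that rose over all symbols. In the list of G1 cyclins, Cdk4/6 and Cdk inhibitors 5 of 18 tested members fell and 6 rose, with a median of 0.42 (-0.87 against the spike-ins). Cdkn1a (p21) read 1.22, 1.27 and 1.37 on the untreated arrays and -1.44 and -1.63 after actinomycin D and fell by 2.83 ± 0.11, whereas its target kinase Cdk4 rose by 1.08 ± 0.11 (-0.21 against the spike-ins). In the Bcl2 list 9 of 34 fell, among them Bbc3 (Puma) by 1.75 ± 0.19 and the survival factor Mcl1 by 1.27 ± 0.16, while Bax rose by 0.99 ± 0.11 (-0.29 against the spike-ins); the median was 0.29 (-1.0 against the spike-ins), and 14 rose (9 without vehicle replicate 2). Fancf, an adaptor of the Fanconi core complex, read 1.83, 1.86 and 1.8 on the untreated arrays and -1.86 and -3.31 after actinomycin D and fell by 4.42 ± 0.51, the deepest of 12 falls among 71 DNA repair genes, of which 35 rose around a median of 0.33 (-0.96 against the spike-ins). Xrcc2 fell by 2.2 ± 0.11 and Lig4 by 1.92 ± 0.11. In the list of 57 cohesin, condensin and kinetochore genes 30 rose and 11 fell, with a median of 0.44 (-0.85 against the spike-ins). Cdca4, which the list holds although it is not a subunit of these complexes, lost 3.38 ± 0.17. Mis12, of the outer kinetochore, lost 2.42 ± 0.15, while the condensin gene Ncapd2 rose by 1.13 ± 0.095 (-0.16 against the spike-ins). Among DNA methylation genes 5 of 17 tested members fell and 9 rose, with a median of 0.53 (-0.76 against the spike-ins, -0.044 after quantile normalization): Uhrf1, which guides maintenance methylation, rose by 1.2 ± 0.13 (-0.084 against the spike-ins), and the methyl-CpG binder Mbd1 fell by 1.63 ± 0.17. Of 27 imprinted genes 5 fell, with Zrsr1 at -3.17 ± 0.34, and 12 rose (6 without vehicle replicate 2), around a median of 0.40 (-0.89 against the spike-ins). Of 32 germline-linked and developmental pluripotency associated genes 14 rose and 2 fell, around a median of 0.64 (-0.65 against the spike-ins); Dppa5a rose by 1.15 ± 0.12 (-0.13 against the spike-ins) and Tex264, which encodes a receptor for turnover of the endoplasmic reticulum, fell by 1.98 ± 0.11.

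**Figure D4:**
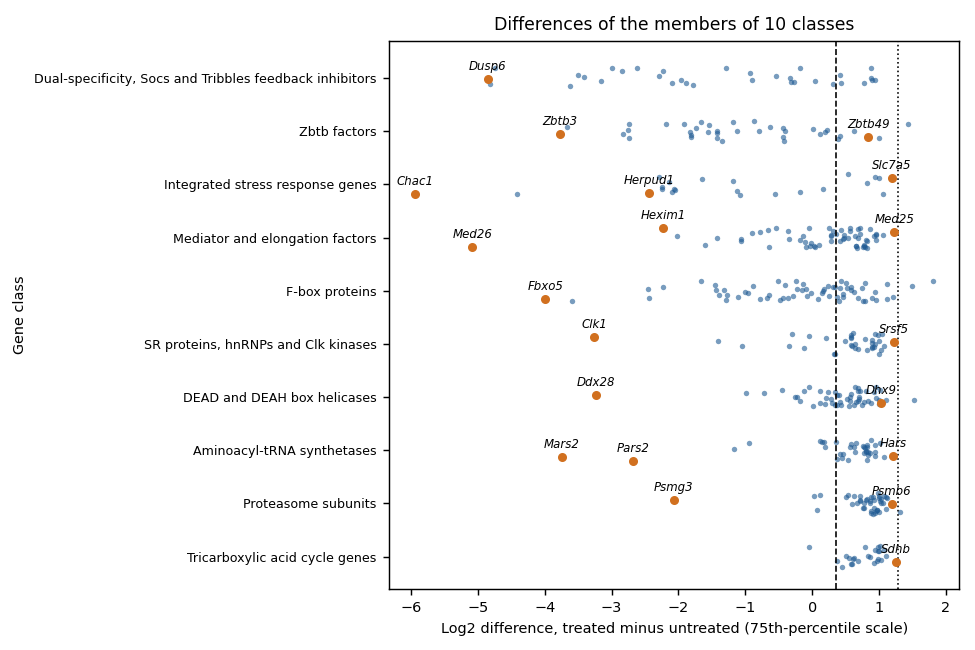
Log2 difference of every tested member (points) of 10 classes on the 75th-percentile scale (horizontal axis), with the genes named in the text labelled and the median of all symbols (0.35) as a vertical line. In the lists of SR proteins, helicases, proteasome genes and tRNA synthetases most members cluster right of the line (left of no change against the spike-ins, drawn at 1.29), and Clk1, Ddx28, Psmg3 and Mars2 stand far to the left.

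Non-coding genes lay at both ends. Among host genes of small nucleolar RNAs and small nuclear RNAs 5 of 19 tested members fell and 9 rose, with a median of 0.065 (-1.22 against the spike-ins, -0.079 after quantile normalization, -0.029 after normexp). All 5 that fell were host transcripts: Snhg16 lost 2.39 ± 0.12, Snhg12 2.03 ± 0.13 and Snhg7 1.8 ± 0.12, with Snhg5 and Snhg15, named after their values were seen, at -1.11 ± 0.12 and -1.07 ± 0.11. Rnu3b1, a U3 small nucleolar RNA, read 0.77, 1.2 and 0.80 on the untreated arrays and 4.56 and 4.51 after actinomycin D. It rose by 3.61 ± 0.15 (2.33 against the spike-ins) (adjusted p = 1.4e-05), with both treated arrays above all untreated ones on either scale, and Snora47 rose by 1.95 ± 0.23 (0.66 against the spike-ins).

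The 12 largest measured rises also included C5ar2, a complement receptor (2.15 ± 0.12 (0.87 against the spike-ins)), Galns, a lysosomal sulfatase (2.0 ± 0.16 (0.72 against the spike-ins)), the endoderm and heart factor Gata5 (1.91 ± 0.14 (0.62 against the spike-ins)), Timmdc1, an assembly factor of respiratory complex I (1.82 ± 0.15 (0.53 against the spike-ins)), and Fam13c (1.81 ± 0.18 (0.53 against the spike-ins)). Tsx, Slurp1, H4c9, Pitpnm2os1 and Slc35e1 rose by 1.82, 1.8, 1.77, 1.71 and 1.79 (0.53, 0.51, 0.48, 0.42 and 0.50 against the spike-ins). Other probes of these genes read -0.68 for Fam13c, 0.75 for Slc35e1, 0.47 for Timmdc1 and 0.37 for H4c9, all 4 below untreated against the spike-ins. Slurp1 lost its call without any 1 of the untreated arrays and without vehicle replicate 2, when its difference was 0.60. The 7 symbols that rose on the spike-in scale were Rnu3b1, C5ar2, Galns, Gata5 and Fam13c with 1700081H04Rik and Cnga1, the last 2 named after their values were seen. C5ar2 read -2.8, -2.66 and -2.68 on the untreated arrays and -0.47 and -0.65 after actinomycin D, and Cnga1 was below background on every untreated array. Genes of receptors for odours, pheromones and taste serve as a class with no known role in stem cells. Of 1344 such symbols on the array 243 passed the filter, with median signals of 22.4, 39.6 and 26.2 on the untreated arrays and 16.8 and 20.8 after actinomycin D; 101 of these rose and 6 fell (3 without vehicle replicate 2), and their median was 0.58 (-0.71 against the spike-ins).

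The 3 arrays with 4-hydroxytamoxifen (4OHT) instead of vehicle share the same untreated controls, so the comparisons are not independent. The 4OHT arrays lay on a different slide from the untreated and vehicle arrays. For 4OHT the effect of the slide therefore cannot be told apart from that of the treatment. Against untreated, Zfp296 was at -5.23 ± 0.11 with vehicle and -5.52 ± 0.094 with 4OHT, Med26 at -5.09 ± 0.16 and -5.15 ± 0.14, Gapdh at 1.33 ± 0.13 and 1.03 ± 0.12, and Rnu3b1 at 3.61 ± 0.15 and 3.78 ± 0.13.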

How the data were processed

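Members and gene lists were chosen with earlier results of these data known. The authors deposited a linear, background-subtracted intensity per spot, the processed signal that Agilent's Feature Extraction software (11.0.1.1) writes, per the file headers. They hold the green channel, while the labels name Cy5. The log2 values were computed here from these deposited intensities, less each array's 75th percentile over non-control spots. Spots of 1 probe were averaged, and 466 probes with outlier spots were left out. The 33013 probes kept were well above background throughout 1 or more groups, and a symbol was read from its probe with the highest mean. RefSeq accessions were matched to symbols of GRCm38.p6, used for names and promoter sequences only, whereas the files' build is mm9. Groups were compared with limma 3.58.1 (R 4.3.3; lmFit, eBayes) over all 8 arrays in 3 groups, with 5 residual degrees of freedom, two-sided; p-values measure the spread between arrays. The fit was tested on simulated data. Named genes are the 12 largest measured falls and rises, the 8 largest bounded falls, up to 3 called members in each direction per class, and 20 fixed genes, not all printed, and a few genes and 1 gene class are not reported here. Alternatives covered scaling, background correction, filters, probes, the deposited value table (which holds the same intensities), the arrays and variance model in the fit, the replicate number as a block, a minimum of 2-fold, and each array left out.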

Additional observations from a re-analysis of the deposited data

How the results depend on the processing

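The count of features that fell, 4538, became 18828 against the spike-ins and lay within 1.5 times under every other setting run. The count that rose, 11832, became 7366 with median scaling, 7426 with quantile normalization, 19429 with normexp background correction and 30 against the spike-ins. The count at least 2-fold lower, 2968, became 1908 with a filter on all 5 arrays, 1322 with normexp, 12071 against the spike-ins and 1179 with a 2-fold minimum in the test. The count at least 2-fold higher, 2808, became 602 with normexp, 1161 with quantile normalization, 20 against the spike-ins and 41 with the 2-fold minimum. Leaving out each array in turn gave 3896 to 4339 lower, 9555 to 11733 higher, 2718 to 3064 at least 2-fold lower and 2532 to 3209 at least 2-fold higher, and where 1 vehicle array was left it was assumed to vary like the other groups. With the replicate number as a block the counts were 4321, 10733, 2926 and 2763. The deviations of same-numbered arrays from their group means correlated at -0.03 and -0.19. With only 2 vehicle arrays these values cannot settle whether a number marks a shared culture or day, which the labels do not say. Median scaling and quantile normalization moved the median of all features from 0.40 to 0.44 and 0.21, and normexp moved it to 0.54. Of 29 class medians at least 0.3 from that of all symbols, 26 kept their side with quantile normalization, 28 with normexp and 29 under each of the other settings run. Of 166 named genes, these turned below untreated against the spike-ins: Hprt (-0.83), Sox13 (-0.62), Sp7 (-0.46), Zbtb49 (-0.45), Nr6a1 (-0.43), Usf2 (-0.42), Bax (-0.29), Phgdh (-0.29), Eprs (-0.28), Tuba1a (-0.28), Nf2 (-0.28), Ncl (-0.28), Dhx9 (-0.26), Map4k2 (-0.25), Asns (-0.23), Cdk4 (-0.21), Dvl3 (-0.21), Impdh2 (-0.18), Actb (-0.18), Eef1a1 (-0.16), Ncapd2 (-0.16), Prmt1 (-0.15), Cct5 (-0.14), Dppa5a (-0.13), Arf1 (-0.12), Hdac1 (-0.12), Psmb6 (-0.097), Slc7a5 (-0.096), Uhrf1 (-0.084), Eef2 (-0.078), Hars (-0.076), Pdia4 (-0.075), Med25 (-0.062), Srsf5 (-0.059), Actg1 (-0.052), Dync1h1 (-0.041), Sdhb (-0.035). Quantile normalization turned Actb (-0.0058) and Ncl (-0.052), and averaging the probes of a gene turned Nanog (0.81) and Zbtb49 (-0.63). Normexp turned Il9 (0.54). The calls of Clk3 (-0.27), Klf5 (-0.66), Sox13 (0.71), Timm10 (-0.71), Timm9 (-0.52) were lost with median scaling and those of Hes5 (-0.20), Tnfaip3 (-0.19), Tnfsf11 (-0.042) with normexp. Further calls of risers were lost with quantile normalization (17) and against the spike-ins (10). Slurp1 and Clk3 lost theirs also with no filter, with only the 5 arrays in the fit and with the block. Genes near background have only bounds, and the 2 vehicle arrays limit the precision throughout.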

Other observations

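Probes named in the files by a genomic interval (mm9) and not by a gene covered 7407 features, of which 930 fell and 2726 rose (16 against the spike-ins), around a median of 0.39 (-0.90 against the spike-ins). The interval with the most probes that were above background on all 5 arrays and fell by at least 2-fold was chr17:39960567-39992817, picked after the values were seen, with 8 of 9 tested probes. The files mark the probes of an interval F or R, and the marks differed here. All 5 probes marked R fell, by 3.84 to 5.64. The deepest read 6.23, 6.10 and 6.28 on the untreated arrays and 1.15 and -0.02 after actinomycin D, a fall of 5.64 ± 0.36 (limma adjusted p = 7.0e-05). Of the 4 probes marked F, 3 fell by 1.39 to 1.86. The remaining one, the brightest of the 9 probes, differed by 0.78 ± 0.39 and was not called (adjusted p = 0.13). The gene at this interval was not looked up here.

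Where several probes of a symbol were kept (3776 symbols, 4520 further probes), the further probe differed from the one reported by a median of 0.24 log2, and 10.5% differed by over 1. Beside the genes whose differing probes are given above (Btg1, Nanog, Zbtb49, Fam13c, Slc35e1, Timmdc1 and H4c9), further probes over 1 log2 away read -1.28 for E2f3, -1.36 for Fzd7, -1.67 for Pars2, -1.91 for Tagap1 and -3.46 for Trib1, for these 5 in the same direction with a smaller size. The isoforms these probes read were not analysed here.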
